A study of Homo sapiens with 6 samples.

Results

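The 10 genes described here encode enzymes and core partners of DNA methylation and of Polycomb repressive complex 2 (PRC2): DNMT1, UHRF1, DNMT3A, DNMT3B, TET1, TET2, TET3, EZH1, EZH2 and SUZ12. They were chosen by name, with earlier results of these data known, and each matched 1 of the 35856 genes in the expression table. RNA was sequenced from 6 libraries of HCCLM3, a human hepatoma cell line of high metastatic potential. The control group, NC (called Empty in the study), was transfected with the empty vector, and the LINC00862 group with a vector that carries the long non-coding RNA LINC00862, with 3 libraries in each. On that description both groups carried a vector, and the LINC00862 insert was the stated difference. The paper's methods for RNA sequencing name the overexpression and do not describe the control. Nothing in the labels says that the 3 libraries of a group came from separate cultures, so p-values measure the spread between these libraries, which may be technical.

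DNA methylation places a methyl group on cytosine, mostly where a G follows (CpG). DNMT3A and DNMT3B set new marks, DNMT1 copies them to the daughter strand at replication with the help of UHRF1, which binds hemimethylated CpG, and the TET dioxygenases oxidise the methyl group so that it can be removed. PRC2 carries EZH1 or EZH2 as the methyltransferase for lysine 27 of histone H3 (H3K27) and needs SUZ12 for its assembly, and in dividing cells EZH2 is the more abundant catalytic subunit. All values below are transcript levels, and neither CpG methylation nor H3K27 methylation was measured in these libraries.

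RefSeq promoter windows of 4 of the 10 genes (DNMT1, UHRF1, EZH2 and SUZ12) hold an 8-base word of the type bound by E2F factors. These factors are known to drive genes of S phase. The words searched were TTTCCCGC, TTTGGCGC and TTTCGCGC, on both strands, in RefSeq windows on GRCh38.p14 that run from 250 bases before to 50 bases after each annotated start. None of the words is the reverse complement of another, words on opposite strands can overlap, and a window was counted once however many it held. They are shown because the word, which played no part in choosing the genes, occurs in these 4 and in part of the replication genes described further on. The stretches lie on the strand of each gene, 5′ to 3′, with the word in capitals: DNMT1 at chr19:10194924-10195023 (minus strand), UHRF1 at chr19:4909431-4909530 and chr19:4909938-4910037 (plus strand), EZH2 at chr7:148884262-148884361 (minus strand) and SUZ12 at chr17:31936772-31936871 (plus strand).
DNMT1: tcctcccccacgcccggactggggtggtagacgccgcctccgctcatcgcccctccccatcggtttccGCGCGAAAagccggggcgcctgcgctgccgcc
UHRF1, most upstream start: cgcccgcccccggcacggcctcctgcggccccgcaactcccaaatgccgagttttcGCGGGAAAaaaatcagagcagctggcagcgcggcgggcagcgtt
UHRF1, middle start: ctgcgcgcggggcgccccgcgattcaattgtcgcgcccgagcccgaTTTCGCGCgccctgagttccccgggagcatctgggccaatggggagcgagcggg
EZH2: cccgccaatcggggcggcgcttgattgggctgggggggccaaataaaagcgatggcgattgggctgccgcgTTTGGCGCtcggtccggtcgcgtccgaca
SUZ12: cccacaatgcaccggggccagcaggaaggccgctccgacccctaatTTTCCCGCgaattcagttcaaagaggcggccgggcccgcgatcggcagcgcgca

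In DNMT1 the word begins 2 bases before the RefSeq start, and in EZH2 it begins at base 2 of the first exon. UHRF1 has 3 windows. In UHRF1 a word begins 14 bases before the most upstream RefSeq start and 160 bases before the middle one, and the window of the most downstream start holds none. In SUZ12 it begins 189 bases before the start. One of the 3 words was present in 961 of 35116 windows of all genes (2.74%) and in 5 of the 22 windows of the 10 genes (22.7%). By gene, this came to 902 of 27305 genes (3.3%), 4 of the 10, 8 of the 12 replication genes with a window (66.7%) and 3 of the 7 partners of DNA methylation (42.9%). These 2 lists had the highest shares. It was 2 of 9 for methyl donor and 2-oxoglutarate enzymes, 2 of 10 for other PRC2 subunits and 1 of 7 for methyl-CpG readers. It was 0 of 21 for PRC1 subunits and 0 of 7 for oxidised base removal and TET partners. None of the 15 windows of DNMT3A, DNMT3B, the TET genes and EZH1 held one. The ratio of observed to expected CpG had a median of 0.822 over the 22 windows against 0.579 over all windows. It was lowest at DNMT3B (0.118) and at the TET1 windows (0.309 to 0.48). The only DNMT3B window, chr20:32779602-32779901, lies inside the gene, which begins at 32762385 in the expression table. The DNMT1 window and the 3 UHRF1 windows also lie inside their genes, which begin at 10231286 (minus strand) and 4903080 in the expression table. For TET3, which begins at 73986404 there, no window covers the first base. The sequence at the first base of these genes was not searched, so the words and CpG values given here do not describe it. A match of letters describes the sequence and does not show a bound site.

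The total counts lay between 58241123 and 68229070 per library. The overexpressed RNA had 11, 21 and 6 counts in NC and 145, 121 and 76 in the LINC00862 group, a log2 fold change of 3.22 (SE 0.53, edgeR quasi-likelihood test, adjusted p = 0.000583). RBM47, an RNA-binding protein the study relates to LINC00862, was 5.4 higher on the log2 scale (adjusted p = 2.8e-07). The groups differed very broadly: of 20741 genes tested by edgeR, 34.4% were called higher and 29.8% lower in LINC00862 at a false discovery rate of 0.05. The hepatocyte and hepatoma markers summed to 3.05 to 3.6 FPKM in NC, where TTR was at 0 in every library and ALB and HNF4A in 2 of 3, and to 539 to 619 FPKM in LINC00862, where AFP was at 0. FGB alone gave 524 to 598 FPKM of the latter sum, and SERPINA1 fell by 3.55 on the log2 scale (adjusted p = 3.2e-05). The 5 mesenchymal markers, of which VIM was the most abundant, all fell, from a sum of 563 to 624 FPKM to one of 5.60 to 5.76, and 4 of 5 epithelial markers rose. Blood, endothelial and fibroblast markers gave 1, 1 and 2 calls among 4 genes each, all higher, with sums of at most 15.6 FPKM in any library. A response to LINC00862 and a difference in the origin or state of the cells cannot be told apart with these groups, and in bulk RNA neither can fewer cells expressing a gene and less RNA per cell.

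Of the 10 genes, all of which passed the low-count filter, edgeR called 1 higher (DNMT3A) and 5 lower (DNMT1, UHRF1, TET1, TET2 and EZH2) in LINC00862, beside 34.4% and 29.8% of all genes tested, and 4 did not pass (DNMT3B, TET3, EZH1 and SUZ12). Their median log2 fold change was -0.63, where the median of all genes tested was 0.11. When group means of 0.1 FPKM or more and a change of 2-fold or more were also required, 4 genes were called (DNMT1, UHRF1, DNMT3A and TET2) beside 30.6% of all genes. In FPKM the groups did not overlap for 9 of the 10, beside 71.1% of all genes tested. With 3 libraries against 3, the exact two-sided permutation test of FPKM cannot go below p = 0.1, and it gave 0.1 for these 9 genes and 0.9 for EZH1.

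**Figure D1:**
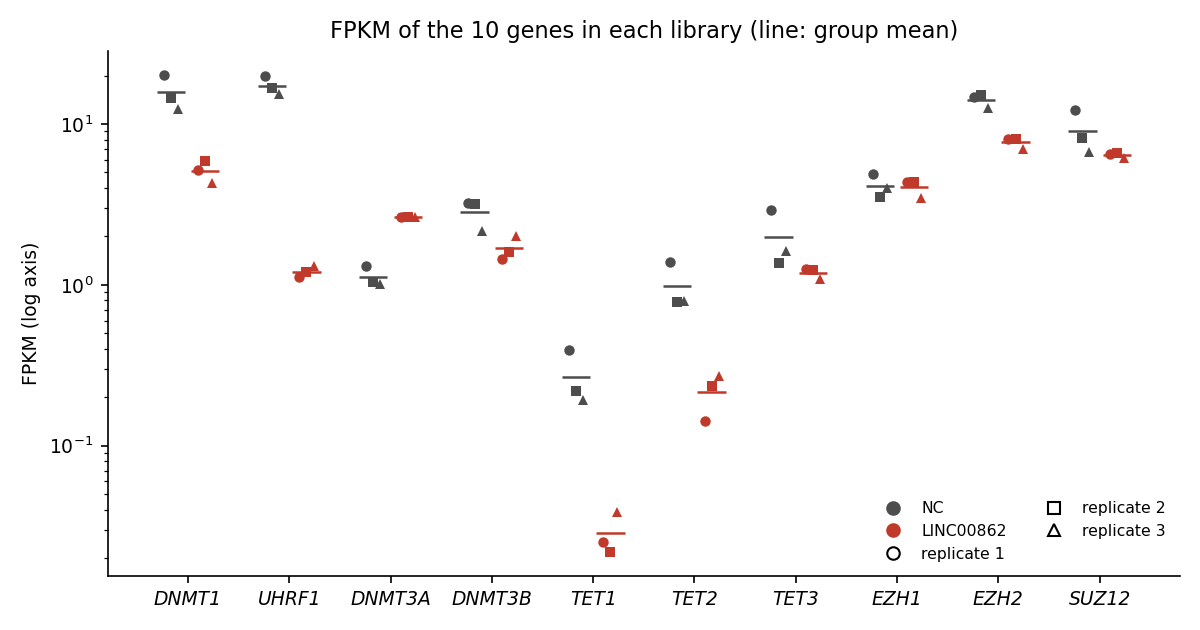
FPKM (log axis) of the 10 genes in each library, with NC in grey, LINC00862 in red, replicates by symbol and group means as lines. UHRF1 fell from 15.4 to 19.9 FPKM in NC to 1.12 to 1.3 in LINC00862, DNMT3A rose above every NC library, and EZH1 overlapped between groups.

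The maintenance pair fell. DNMT1, which copies methylation after replication, was at 20.3, 14.4 and 12.5 FPKM in NC and 5.21, 5.86 and 4.27 in LINC00862. Every LINC00862 library lay below every NC library. The group means were 15.7 ± 4.07 and 5.11 ± 0.801 FPKM (SD, n = 3), and edgeR gave a log2 fold change of -1.44 (SE 0.17, adjusted p = 9.47e-05), which is a 2.71-fold lower level. UHRF1, which recruits DNMT1 to hemimethylated sites, was at 19.9, 16.6 and 15.4 FPKM in NC and 1.12, 1.19 and 1.3 in LINC00862. It had the largest change of the 10 genes, with means of 17.3 ± 2.31 and 1.2 ± 0.0934 FPKM and a 12.6-fold lower level (log2 fold change -3.66, SE 0.17, edgeR adjusted p = 2.65e-07). Its place among the genes tested moved from between the 87.2 and 90.3 percentiles of FPKM in NC to between 44.3 and 48.2 in LINC00862, and that of DNMT1 from between 84.5 and 90.5 to between 71.9 and 75.3.

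The pair fell unequally. The ratio of UHRF1 to DNMT1 in FPKM was 0.980, 1.15 and 1.24 in NC and 0.214, 0.204 and 0.305 in LINC00862. The log2 ratio differed by -2.24 between groups, with a pooled SD of 0.26 (exact permutation p = 0.1, 0.12 after Benjamini-Hochberg adjustment over 6 gene pairs). A ratio taken within a library does not depend on library scaling.

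The de novo enzymes went apart. DNMT3A was at 1.31, 1.04 and 1.01 FPKM in NC and 2.63, 2.64 and 2.63 in LINC00862, where the 3 libraries differed by less than in any other of the 10 genes in relation to their mean. It was the only 1 of the 10 called higher, 2.66-fold (log2 fold change 1.41, SE 0.14, edgeR adjusted p = 3.23e-05). DNMT3B was at 3.22, 3.18 and 2.17 FPKM in NC and 1.45, 1.61 and 2.03 in LINC00862, so that the third libraries of the groups nearly met. Its log2 fold change of -0.56 (SE 0.23) did not pass (edgeR adjusted p = 0.0615), and it passed without NC library 3 (-0.69, adjusted p = 0.0293) or without LINC00862 library 3 (-0.76, adjusted p = 0.0274).

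DNMT3B exceeded DNMT3A in every NC library, 2.15 to 3.06-fold, and lay below it in every LINC00862 library, with ratios of 0.554 to 0.771. The log2 ratio of DNMT3B to DNMT3A differed by -1.98 (pooled SD 0.25, exact permutation p = 0.1, adjusted 0.12). Of the summed FPKM of the 3 methyltransferases, DNMT1 made up 79.6% ± 2.18 in NC and 54.0% ± 5.37 in LINC00862, while the share of DNMT3A went from 5.78% ± 0.603 to 27.9% ± 1.68 and that of DNMT3B from 14.6% ± 2.14 to 18.1% ± 4.0 (n = 3 each). The sum itself was 19.7 ± 4.68 FPKM in NC and 9.44 ± 0.612 in LINC00862. Exact permutation p was 0.1 for the sum and the shares of DNMT1 and DNMT3A and 0.3 for DNMT3B.

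**Figure D2:**
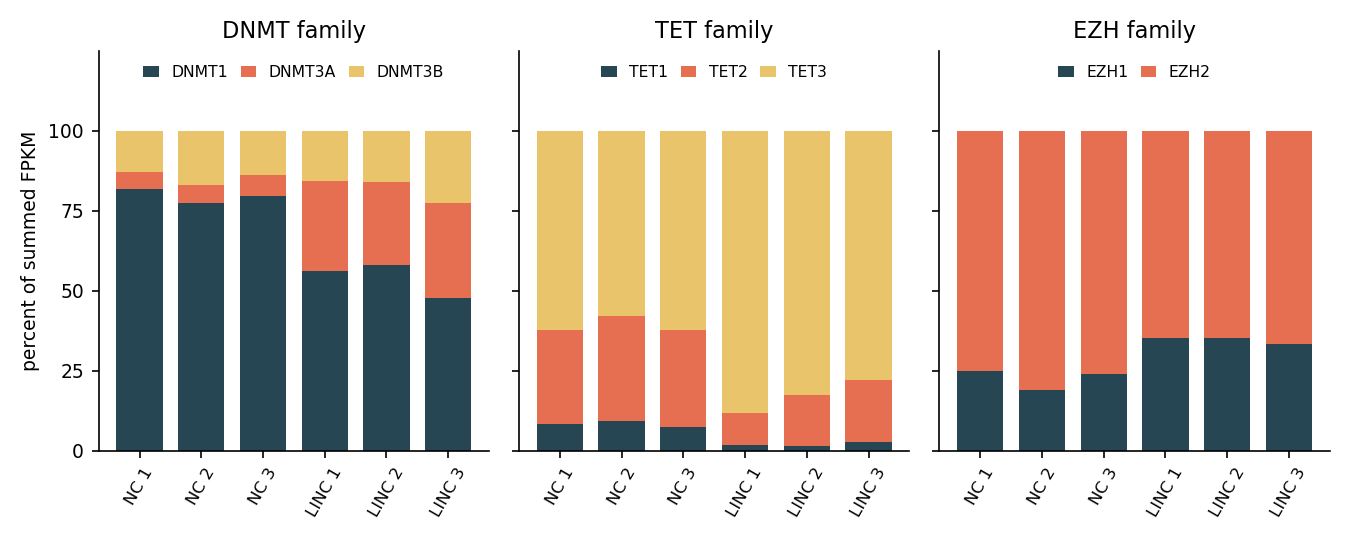
Percent of the summed FPKM of the DNMT, TET and EZH families taken by each gene, in each NC and LINC00862 (LINC) library. DNMT3A took 5.29% to 6.45% of DNMT transcripts in NC and 26.1% to 29.5% in LINC00862, TET3 rose to 77.9% to 88.3% of TET transcripts, and EZH1 to 33.3% to 35.2% of EZH transcripts.

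Among the TET dioxygenases, TET1 and TET2 fell and TET3 did not pass the test. TET1, the least abundant of the 10 genes, had 250, 137 and 123 counts in NC and 19, 14 and 25 in LINC00862, or 0.392, 0.218 and 0.191 against 0.0251, 0.0219 and 0.0385 FPKM. All NC libraries lay above all LINC00862 libraries, and the level was 7.97-fold lower in LINC00862 (log2 fold change -2.99, SE 0.44, edgeR adjusted p = 0.000291). TET2, which lacks the CXXC DNA-binding domain of TET1, was at 1.38, 0.784 and 0.793 FPKM in NC and 0.142, 0.235 and 0.270 in LINC00862. It was 3.96-fold lower (log2 fold change -1.99, SE 0.31, adjusted p = 0.000486). TET3 was at 2.92, 1.37 and 1.63 FPKM in NC and 1.25, 1.23 and 1.09 in LINC00862, with the NC mean set by library 1. Its log2 fold change was -0.53 (SE 0.23, adjusted p = 0.0734), which became -0.21 without NC library 1 and -0.72 (adjusted p = 0.0264) without NC library 2.

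TET3 was the most abundant TET transcript in all 6 libraries. The ratio of TET3 to TET2 was 2.11, 1.75 and 2.05 in NC and 8.84, 5.22 and 4.02 in LINC00862, a log2 difference of 1.54 (pooled SD 0.42, exact permutation p = 0.1, adjusted 0.12). TET3 made up 60.7% ± 2.56 of TET FPKM in NC and 82.9% ± 5.19 in LINC00862, TET2 31.0% ± 1.85 and 15.1% ± 4.74, and TET1 8.29% ± 0.927 and 2.00% ± 0.674. The summed TET level was 3.22 ± 1.28 and 1.43 ± 0.0470 FPKM. The log2 ratio of TET1 to TET2 differed by -1.01 in LINC00862 against NC (pooled SD 0.35), but this direction turned, to 0.28, when 0.1 was added to each FPKM, since TET1 lay below 0.1 in every LINC00862 library.

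In PRC2, EZH2 fell by less than 2-fold, EZH1 showed no detectable difference and SUZ12 did not pass the test. EZH2 was at 14.7, 15.1 and 12.7 FPKM in NC and 8.02, 8.09 and 6.97 in LINC00862. The groups were well apart, with means of 14.2 ± 1.31 and 7.69 ± 0.626 FPKM, and the level was 1.63-fold lower (log2 fold change -0.71, SE 0.13, edgeR adjusted p = 0.00143). The call was lost in a test against a fold change of 2 (adjusted p = 1). EZH1, the paralog that predominates in many resting tissues, was at 4.86, 3.52 and 3.97 FPKM in NC and 4.37, 4.38 and 3.48 in LINC00862. These ranges overlapped, and the log2 fold change was 0.16 (SE 0.15, adjusted p = 0.358). SUZ12 was at 12.3, 8.17 and 6.72 FPKM in NC and 6.48, 6.57 and 6.17 in LINC00862, with NC library 1 far above the rest. Its log2 fold change of -0.31 (SE 0.19, adjusted p = 0.178) became -0.09 without NC library 1 and -0.45 (adjusted p = 0.0451) without NC library 3.

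EZH2 stayed above EZH1 in every library, 3.02 to 4.29-fold in NC and 1.84 to 2.00-fold in LINC00862, and the log2 ratio differed by -0.87 (pooled SD 0.20, exact permutation p = 0.1, adjusted 0.12). EZH1 thus made up 22.6% ± 3.20 of the summed EZH FPKM in NC and 34.6% ± 1.08 in LINC00862, where the sum was 11.8 ± 1.14 FPKM against 18.3 ± 1.49 in NC. The log2 ratio of SUZ12 to EZH2 differed by 0.42 (pooled SD 0.27), which was not beyond the spread (exact permutation p = 0.3). Without NC library 1 the difference was 0.64, and the ratios of the groups did not overlap.

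**Figure D3:**
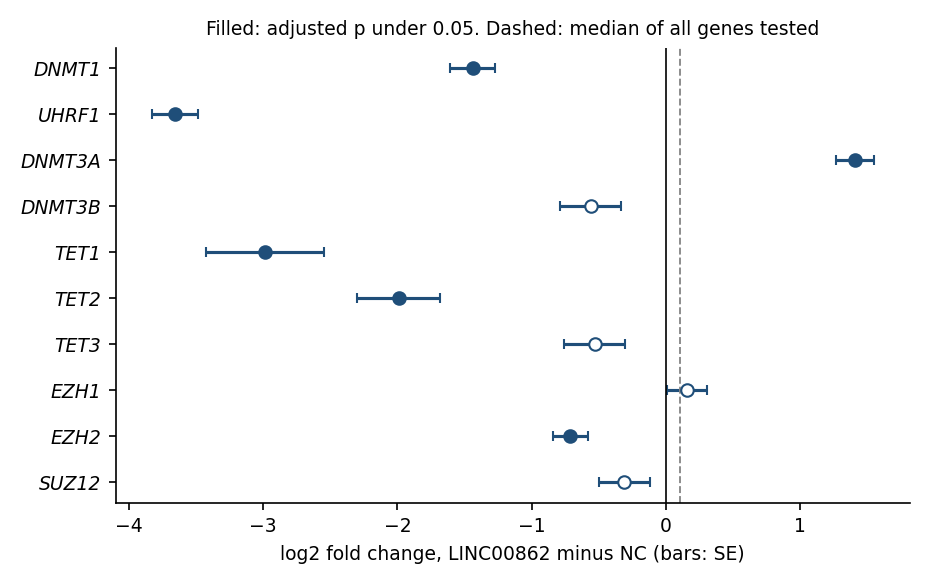
Log2 fold change of LINC00862 against NC for each of the 10 genes, with bars of 1 SE from edgeR. Filled points passed at a false discovery rate of 0.05, and the dashed line marks the median of all genes tested, 0.11. UHRF1 (-3.66) and TET1 (-2.99) lay farthest below, and DNMT3A (1.41) was the only called gene above.

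NC library 1 was the highest of the NC libraries in FPKM for 9 of the 10 genes. In counts scaled by TMM, the scaling of the edgeR test, it was the highest for 8. Long genes in general also tended to be highest in this library. The shares that follow use the scaled counts and not FPKM. When the genes tested were put in 5 equal classes by length, taken as counts per FPKM, 62.5% of the longest class were highest in NC library 1, against 21.7% of the shortest and 37.1% of all. DNMT1, DNMT3A and the TET genes fell in the longest class, EZH1 and SUZ12 in the next, and UHRF1, DNMT3B and EZH2 in the middle one. Without this library the log2 fold changes were -1.27 for DNMT1, -2.68 for TET1 and -1.73 for TET2, and the 6 calls among the 10 genes held.

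**Figure D4:**
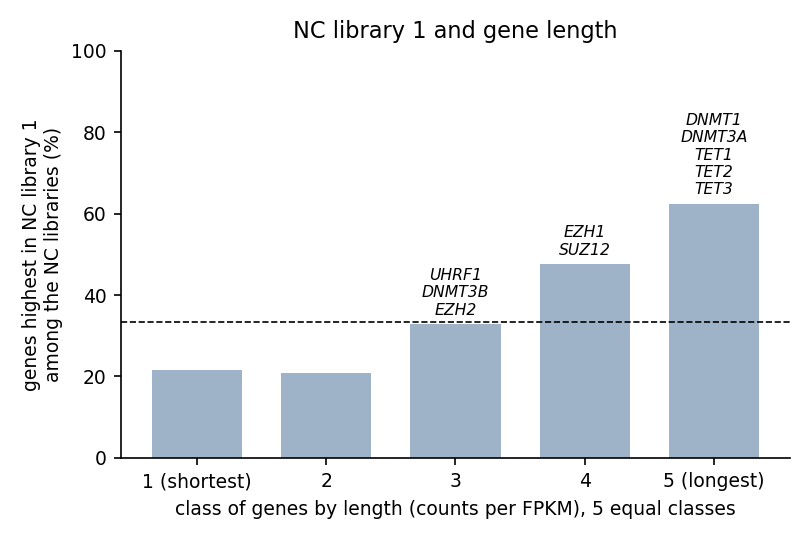
Percent of genes highest in NC library 1 among the 3 NC libraries in counts scaled by TMM, by 5 classes of gene length. The 10 genes are named above their class, and a dashed line marks an equal share. The percent was 21.7 in the shortest and 62.5 in the longest class, where 5 of the 10 genes lie.

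Among the other PRC2 subunits, 8 of 10 tested genes fell, none rose, and the median log2 fold change was -0.67. Counts of calls in this and the following lists stand beside 34.4% of all genes tested called higher and 29.8% called lower. The lists, too, were chosen with earlier results of these data known. PHF19, a Polycomb-like protein that brings PRC2 to chromatin, fell most, from 13.5, 12.7 and 13.9 FPKM in NC to 1.9, 2.45 and 1.92 in LINC00862 (log2 fold change -2.50, SE 0.15, edgeR adjusted p = 1.38e-06). The histone-binding subunit RBBP7 (-1.44), the accessory subunit JARID2 (-1.11) and the Polycomb-like protein MTF2 (-0.91) also fell. EED, the core subunit that binds the trimethylated mark, was at 3.93, 4.42 and 4.18 FPKM in NC and 2.69, 2.68 and 2.29 in LINC00862 (-0.54, adjusted p = 0.00995). PHF1, the third Polycomb-like protein, had a log2 fold change of 0.31 (adjusted p = 0.128), and LCOR one of -0.02.

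In PRC1, which ubiquitinates histone H2A and reads the mark of PRC2, 5 of 24 tested genes rose and 12 fell. Of all genes tested, 34.4% rose and 29.8% fell. The median log2 fold change of the PRC1 genes was -0.36, and -0.15 with upper quartile scaling or -0.53 with library size only. CBX8, a chromodomain subunit, rose from 1.49, 1.2 and 1.47 FPKM in NC to 5.49, 6.7 and 5.63 in LINC00862 (log2 fold change 2.27, SE 0.17, edgeR adjusted p = 4.58e-06). The ring finger genes PCGF1 and PCGF5 rose by 0.84 and 0.76. BCORL1 (-1.73), RYBP (-1.53), PCGF6 (-1.26) and SCML2 (-1.16) had the lowest log2 fold changes. Of the genes that oppose Polycomb, the H3K27 demethylase KDM6B rose by 1.51 on the log2 scale (adjusted p = 0.000108), and its relative KDM6A (-0.58), the H2A deubiquitinase BAP1 (-0.94) and its partner ASXL1 (-1.69) fell. ASXL2 had a log2 fold change of 0.38 (adjusted p = 0.253), and ASXL3, with at most 10 counts in any library, was not tested.

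Partners of DNA methylation fell in 5 of 7 tested genes, with a median log2 fold change of -2.10. HELLS, the remodeller that opens nucleosomal DNA to methylation, fell by 2.51 (adjusted p = 1.91e-06), and CDCA7, which activates HELLS, fell by 2.10. PCNA, the replication clamp that DNMT1 binds, was at 219 to 247 FPKM in NC and 44.0 to 47.6 in LINC00862 (log2 fold change -2.22). TRDMT1 (-2.26), formerly grouped with the DNMT genes and known as a tRNA methyltransferase, and ZBTB24 (-1.51), which activates CDCA7, also fell. USP7, a deubiquitinase that stabilises DNMT1 and UHRF1, was the 1 gene of this list that rose, from 7.71, 5.58 and 5.93 FPKM to 13.8, 13.9 and 11.8 (log2 fold change 1.22, SE 0.14, edgeR adjusted p = 6.74e-05). UHRF2, the paralog of UHRF1, was at 6.21, 4.81 and 4.30 FPKM in NC and 4.08, 4.81 and 3.56 in LINC00862, which overlapped (log2 fold change -0.12, adjusted p = 0.503). DNMT3L, the inactive relative of the DNMT3 enzymes, had 7 to 16 counts in each library and was not tested.

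Of 8 genes of the protein families that read methylated CpG, 7 fell and none rose (median log2 fold change -0.87). MBD1 was at 10.7, 10.1 and 8.3 FPKM in NC and 4.53, 4.58 and 3.41 in LINC00862 (-1.04, SE 0.15, edgeR adjusted p = 0.000264). ZBTB4 (-0.89), MBD2 (-0.78) and MBD3 (-1.83), whose mammalian protein does not select methylated CpG, were among the others that fell, and ZBTB33, also called Kaiso, had a log2 fold change of 0.50 (adjusted p = 0.0976).

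Among 9 genes of oxidised base removal and TET partners, 4 fell and 2 rose (median log2 fold change -0.16, also with CXXC4 at its bound). Of all genes tested, 29.8% fell and 34.4% rose. CXXC5, a CXXC-domain protein known to act with TET2, fell from 11.8, 10.8 and 13.8 FPKM to 0.0556, 0.139 and 0.0383 (log2 fold change -7.11, SE 0.38, edgeR adjusted p = 6.24e-07). Its paralog CXXC4, also known as a TET2 partner, had 0 counts in all NC libraries and 142, 111 and 153 in LINC00862, which is at least 48.5-fold higher against a floor of 3 counts per library. The glycosylase TDG, which removes oxidised bases, did not pass, with a log2 fold change of 0.27 (adjusted p = 0.139), and OGT, which binds TET proteins, rose by 0.74. Of the enzymes that make the methyl donor S-adenosylmethionine or the TET co-substrate 2-oxoglutarate, 5 of 10 rose and 2 fell (median 0.40). MAT1A, the liver form of the donor synthase, had 6, 3 and 0 counts in NC and 611, 631 and 384 in LINC00862, while MAT2A, the form of dividing and non-liver cells, had a log2 fold change of 0.04 (adjusted p = 0.869). IDH1 rose from 15.4 to 19.2 FPKM in NC to 80.5 to 88.7 in LINC00862 (log2 fold change 2.52), and AHCY, which clears the product of methylation, fell by 0.74.

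Genes of replication and proliferation fell in 14 of 16 (median log2 fold change -1.85), among them MKI67 (-3.38), TYMS (-3.20), CCNA2 (-2.87) and MCM2 (-2.14). Since DNMT1, UHRF1 and EZH2 are known to rise and fall with the cell cycle, each was set against the median log2 FPKM of this list within a library, a comparison chosen after the values were seen. On that scale UHRF1 went from -0.84 ± 0.05 in NC to -2.60 ± 0.35 in LINC00862, further down than the list. DNMT1 went from -1.0 ± 0.22 to -0.52 ± 0.04, EZH2 from -1.12 ± 0.14 to 0.08 ± 0.16 and SUZ12 from -1.81 ± 0.30 to -0.18 ± 0.22 (SD, n = 3), so that these 3 were higher in relation to the list in LINC00862 than in NC. SUZ12 itself did not pass the test. The part of proliferation in the fall of the called genes was not tested.

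Germline genes that CpG methylation is known to keep silent gave 2 calls among 4 tested, both higher, beside 34.4% of all genes tested. HORMAD1, of the meiotic chromosome axis, had 0, 8 and 0 counts in NC and 2880, 2237 and 2658 in LINC00862, or 15.6, 14.0 and 16.4 FPKM. STK31 had 0, 4 and 0 counts in NC and 317, 277 and 255 in LINC00862. SYCP3 had a log2 fold change of 0.98 (adjusted p = 0.408) and TDRD6 one of 0.73 (adjusted p = 0.318). DDX4 had 4 counts in 1 library and MAEL 0 in NC and 43, 21 and 6 in LINC00862, and neither was tested.

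All 10 genes have coordinates on hg38 in the table. DNMT1 (19:10133345-10231286) and UHRF1 (19:4903080-4962154) lie on chromosome 19, DNMT3A (2:25227855-25342590) and TET3 (2:73986404-74108176) on 2, DNMT3B (20:32762385-32809356) on 20, TET1 (10:68560337-68694487) on 10, TET2 (4:105145875-105279816) on 4, EZH2 (7:148807383-148884321) on 7, and EZH1 (17:42700275-42745049) and SUZ12 (17:31937007-32001038) on 17. Reads shared with copies or overlapping genes could touch some of them. SUZ12P1, a pseudogene of SUZ12, had 486 to 652 counts per library and a log2 fold change of 0.01. COX20P1, within TET1 on the same strand, had 146, 194 and 133 counts in NC and 27, 13 and 38 in LINC00862, in numbers like those of TET1 in both groups, and was called lower as well (log2 fold change -2.48, adjusted p = 0.00145). The TET1 levels, its fold change and its call are therefore less certain. S1PR2, which overlaps DNMT1, had at most 296 counts beside at least 2809 for DNMT1. The pseudogenes EZH2P1 and TET1P1 had at most 8 and 4 counts, and genes on the opposite strand of TET2 and EZH2 at most 4.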

How the data were processed

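Poly(A) RNA from 3 NC and 3 LINC00862 libraries of HCCLM3 cells was sequenced by the authors as paired reads of 150 bases from a dUTP-stranded kit with molecular identifiers. The authors deposited raw counts of reads per gene and FPKM, in which fragments are divided by transcript length and library size. The submitters' processing notes name cutadapt 1.9, HISAT2 2.0.4, UMI-tools, StringTie 1.3.4d, DESeq2, edgeR and hg38, without their roles. The program that counted reads and its strand setting are not given in the sources used here.

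Groups were compared on the counts by edgeR 4.0.16 under R 4.3.3 (filterByExpr, TMM, quasi-likelihood test, Benjamini-Hochberg adjustment over 20741 genes, false discovery rate of 0.05). Standard errors come from the test statistic. FPKM was compared by exact two-sided permutation tests, and gene pairs by log2 FPKM ratios within a library. Folds against a group at 0 used a floor of 3 counts per library, which covers counting error only. Lists were described by counts of calls and medians. Named are all 10 genes, LINC00862 and RBM47, pseudogenes and overlapping genes, all tested genes of lists of 8 or fewer, and in longer lists the 4 called genes with the highest and the 4 with the lowest log2 fold change. EED, PHF1, LCOR, TDG, MAT2A, ALB, the untested genes and those at 0 in a group were named after their values were seen, and some genes that the rule names are not reported here. The 10 genes and the lists were chosen with earlier results of these data known. The coordinates of 8 of the 10 genes are identical in GENCODE 29, and those of TET1 and SUZ12 differ. Promoter windows are from RefSeq, where all 10 genes had 1 or more. The scripts were tested on simulated data, where edgeR called 112 of 200 changed genes and 4 unchanged ones. It called 37% of the genes changed 2-fold and 75% of those changed 4-fold. The simulation changed 200 of 20016 genes, a far smaller share than was called in the data. The adjustment of p depends on that share, so these rates do not carry over to the data. A gene not called can still differ. Alternatives were DESeq2 1.42.0, limma 3.58.1 on log2(FPKM + 1) and log2(FPKM + 0.1), other scalings, no low-count filter, a false discovery rate of 0.01, a 2-fold null, a replicate block and leaving out each library.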

Additional observations from a re-analysis of the deposited data

How the results depend on the processing

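Over 15 alternatives, the calls of DNMT1 (log2 fold change -1.61 to -1.22), UHRF1 (-3.83 to -3.05), DNMT3A (0.78 to 1.63), TET1 (-3.32 to -0.30) and TET2 (-2.24 to -0.70) held in each, and that of EZH2 (-0.87 to -0.49) in 14, the exception being the test against a fold change of 2. The smallest values of TET1 and TET2 came from log2(FPKM + 1), which shrinks low genes. DNMT3B (-0.76 to -0.34) passed in 5 alternatives, TET3 (-0.72 to -0.21) in 2 and SUZ12 (-0.49 to -0.09) in 1. EZH1 turned direction, to -0.0036 with library size only, -0.0079 with log2(FPKM + 1) and -0.0089 with log2(FPKM + 0.1), and was called higher (0.37, adjusted p = 0.0412) with upper quartile scaling, where 2 genes were called higher. Scaling moved the median of all genes from 0.11 to 0.16 with DESeq2, 0.32 with upper quartile and -0.05 with library size, so small changes such as those of EZH1 and SUZ12 depend on it. The number within the limits on FPKM and fold was 2 with limma on log2(FPKM + 1), and 8010 genes were called against a fold of 2. The TET1 to TET2 ratio difference turned to 0.2847 with log2(FPKM + 0.1), and the other 47 of its kind moved by less than 1 SD. With upper quartile scaling the median of oxidised base removal turned to 0.0537 and that of the endothelial markers to 0.0168. Another 18 list medians moved by more than 1 SD without turning, among them those of the H3K27 demethylases (-0.36) and the methyl donor enzymes (0.62) with upper quartile scaling and of oxidised base removal (-0.32) with library size only. Leaving out 1 library gave 12063 to 14285 calls. Same-numbered libraries did not deviate together (correlations -0.05, -0.03 and -0.01), so the numbers were not taken as pairs. A fit with the replicate number as a block called 12098 genes and changed no call among the 10. At these depths TET1 in LINC00862 rests on 14 to 25 counts per library.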
